A study of Mus musculus with 6 samples.

Results

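The genes described here are 37 members of 2 linked programmes, sugar breakdown by glycolysis and the response to low oxygen, measured in pigment-sorted mouse melanoma cells. They were taken by gene symbol from the deposited table of 22740 genes: 20 enzymes and regulators of glycolysis and 17 genes of the hypoxia-inducible factor (HIF) axis, with solute carriers left out. All 37 were in the table and all passed the filter on low counts, as did 11921 genes in all. The cells were B16-F3, a pigmented mouse melanoma line grown in DMEM with fetal serum and antibiotics, and a flow sorter divided them into a high-pigmented population (HPC) and a low-pigmented one (LPC); the gate is not given in the labels. No drug, gene edit or low-oxygen treatment is named for either population. Each was read as 3 RNA libraries, numbered 1 to 3. Nothing in the labels ties the numbers to cultures, sorts or days. The p-values here therefore rest on library-to-library spread alone, and that spread may be technical.

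Glycolysis splits glucose into pyruvate in the cytosol. Its preparatory steps spend ATP to make triose phosphates, its payoff steps return ATP and NADH, and lactate dehydrogenase regenerates NAD+ by turning pyruvate into lactate. HIF is a transcription factor whose alpha subunit is hydroxylated by the EGLN prolyl hydroxylases and destroyed while oxygen is present. When oxygen falls, the subunit lasts, pairs with ARNT and binds short DNA words that contain ACGTG or GCGTG, from which it raises the transcription of glycolytic enzymes, angiogenic factors and mitochondrial regulators. In the melanocyte lineage MITF is also known to act on the HIF1A gene.

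Library totals lay between 14695822 and 22186743 counts, and the 37 genes together took 1.03% to 1.67% of them. Levels are given as CPM, a gene's counts over its library's total times 1e6, scaled between libraries with TMM factors. Only the summed levels of cell type markers are given without these factors. The libraries read transcript 3' ends, so CPM values of different genes are set side by side without a length term. Such comparisons between genes are of reads as counted, and whether they follow transcript copies was not tested. All 7 melanocyte markers looked for were present, with summed levels of 32468 to 36210 CPM over the 6 libraries. Of the 5 leukocyte markers 2 had any count, with summed levels of 6.94 to 12.7 CPM in HPC and 2.65 to 7.12 CPM in LPC. Nearly all of it was Cd68, with a blocked log2 fold change of 1.11 that was not called (edgeR adjusted p = 0.13, against 0.42 without the block). Of the 3 endothelial and 3 keratinocyte markers 1 each had any count, with summed levels under 1 CPM. The 4 fibroblast markers, of which Dcn had 1 count in all, summed to 17.6 to 34.4 CPM, mostly Col1a2, and the sum overlapped between populations. Single markers did not all overlap: Pdgfra had a mean of 4.31 ± 1.24 CPM over the HPC libraries and of 9.47 ± 4.03 CPM over the LPC libraries (SD, n = 3 each). It was lower in every HPC library, called when the fit was blocked on replicate number (edgeR adjusted p = 0.045, against 0.34 without the block). Col1a1 was also lower in every HPC library without being called. Col1a2 leaned the other way, with means of 15.3 ± 5.25 CPM in HPC and 11.9 ± 10.6 CPM in LPC. Its populations overlapped and it was not called (edgeR adjusted p = 0.26 with the block, 0.89 without it). The part of these markers in the results below was not tested. Tyr, the tyrosinase gene, was at 855 to 994 CPM in HPC and 62.2 to 261 CPM in LPC, in the direction of the sort labels (edgeR adjusted p = 0.021 with the block, 0.17 without it).

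The question put to these genes was whether more and less pigmented cells of one line differ in them. Without the replicate number in the model, none of the 37 passed (edgeR quasi-likelihood test, Benjamini-Hochberg adjusted p under 0.05), where 0.0419% of all tested genes did. At an unadjusted p under 0.05 there was 1 member, Hk2, or 2.7%, where 9.37% of all genes lay under that value. With the replicate number as a block, which sets each HPC library against the LPC library of its number, Hk2 was called higher in HPC. That is 2.7% of the members, where 2.52% of all genes were called with the block, 1.43% higher and 1.1% lower in HPC. At an unadjusted p under 0.05 in the blocked fit there were 7 members, 4 higher and 3 lower, or 18.9% against 18.8% of all genes. The members' shares thus did not exceed those of the whole table by more than a gene. The median log2 fold change (HPC over LPC) was 0.049 over the 20 glycolytic genes and -0.034 over the 17 HIF genes, beside -0.0091 over all tested genes. For 31 of the 37 the fold change was under 0.3 in size on the log2 scale, and the standard errors (SE) ran from 0.12 to 0.59 with a median of 0.22.

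**Figure D1:**
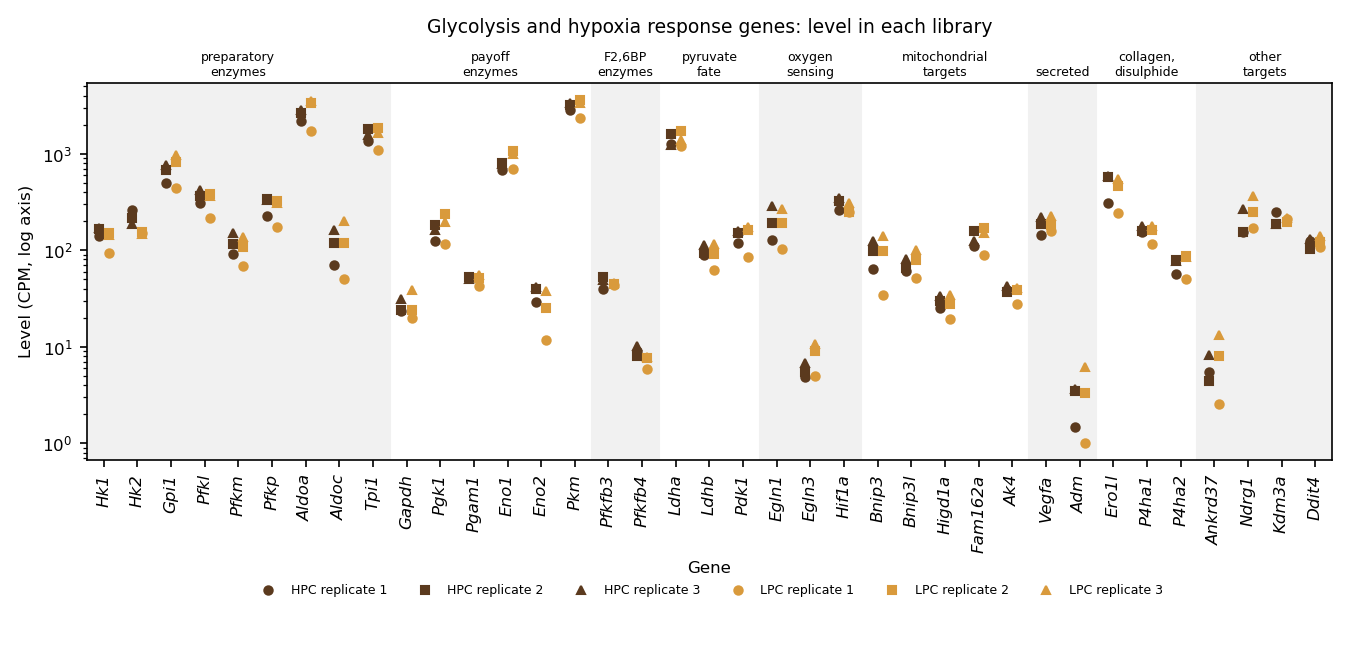
Level of each of the 37 genes in each library, in CPM on a log axis; genes are grouped by role, dark points are HPC and light points LPC, and the symbol gives the replicate number. For most genes the circle of LPC replicate 1 is the lowest point, while the dark and light points otherwise interleave.

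Hk2 encodes an inducible hexokinase that binds mitochondria and phosphorylates glucose, the entry step of glycolysis. In the order of the replicate numbers, which holds for every triplet of values here, the HPC libraries stood at 263, 218 and 186 CPM and the LPC libraries at 150, 153 and 146 CPM. Every HPC library lay above every LPC library, and the LPC libraries lay close together. The means were 222 ± 38.7 and 150 ± 3.70 CPM (SD, n = 3 each). Without the block the log2 fold change was 0.57 (SE 0.14, edgeR adjusted p = 0.24), and with it 0.55 (SE 0.11, edgeR adjusted p = 0.049), a 1.47-fold higher level in HPC. The call depended on the fit: DESeq2 without the block gave an adjusted p of 0.023, where that tool called 1.88% of all genes, whereas correcting the blocked edgeR fit for transcript length and GC content gave 0.057, where 2.7% of all genes were called. Leaving out the pair numbered 2 or 3 from the blocked edgeR fit gave adjusted p values of 0.35 and 0.057, and over the alternatives tried the log2 fold change of Hk2 lay between 0.44 and 0.68 and its adjusted p between 1.9e-05 and 0.75. Hk2 (ENSMUSG00000000628) occupies bases 82725025 to 82774454 of chromosome 6, minus strand (GENCODE M21 on GRCm38), and the predicted gene Gm17034 overlaps it on the opposite strand. Whether the counting used strand is not given in the sources used here, so reads of such overlapping genes cannot be told apart. In sorted populations measured in bulk, a change in the number of cells that express a gene and a change in RNA per cell cannot be told apart either.

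Hk1, the housekeeping hexokinase, was at 139, 165 and 169 CPM in HPC and 93.0, 149 and 145 CPM in LPC. It was higher in HPC within each replicate number, but the groups overlapped and it did not pass without the block (log2 fold change 0.29, edgeR adjusted p = 0.70) or with it (0.31, edgeR adjusted p = 0.19). Phosphofructokinase, which makes the committed step, is encoded by Pfkl, Pfkm and Pfkp, named for liver, muscle and platelet. Their mean levels were 363, 120 and 300 CPM in HPC and 319, 104 and 269 CPM in LPC, and none passed in either fit. Aldoa, the main aldolase, was the most abundant preparatory enzyme. It was at 2189, 2657 and 2834 CPM in HPC and 1721, 3314 and 3505 CPM in LPC, so that both the lowest and the highest library were LPC. Its log2 fold change was -0.15 (SE 0.25, edgeR adjusted p = 0.91). Gpi1, which isomerises glucose 6-phosphate, Aldoc, the brain-type aldolase, and Tpi1, the triose phosphate isomerase, had log2 fold changes of -0.21, -0.08 and 0.02. Over the 9 preparatory genes 6 fold changes were above 0 and 1 gene, Hk2, was called with the block.

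Among the payoff enzymes Pkm, a pyruvate kinase gene whose isoforms were not told apart, had the highest mean level of all 37 genes. It was at 2840, 3168 and 3330 CPM in HPC and 2333, 3584 and 3372 CPM in LPC (log2 fold change 0.01, SE 0.17, edgeR adjusted p = 1.00). LPC held both the lowest and the highest library. Eno2, the neuronal enolase, had the largest positive fold change of the 37. It was at 29.2, 39.9 and 41.8 CPM in HPC and 11.7, 25.1 and 37.4 CPM in LPC. HPC was higher within each replicate number, yet LPC replicate 3 lay above HPC replicate 1. The log2 fold change was 0.58 (SE 0.36, edgeR adjusted p = 0.69) without the block and 0.69 (SE 0.20, edgeR adjusted p = 0.13) with it. DESeq2 with the block, which called 4.14% of all genes, called Eno2 (adjusted p = 0.019), as did edgeR with the block when the pair numbered 3 was left out (adjusted p = 0.025, 1.64% of all genes called). Without LPC replicate 1 the unblocked edgeR log2 fold change was 0.25. Eno1, the general enolase, was at 682, 797 and 780 CPM in HPC and 700, 1053 and 994 CPM in LPC. It was lower in HPC within each replicate number and did not pass without the block (log2 fold change -0.28, edgeR adjusted p = 0.68) or with it (-0.26, edgeR adjusted p = 0.25). Pgk1, phosphoglycerate kinase, and Pgam1, phosphoglycerate mutase, had log2 fold changes of -0.22 and 0.07.

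Gapdh, whose enzyme makes the NADH of the pathway, was listed at 23.6, 23.8 and 30.8 CPM in HPC and 19.8, 23.7 and 39.0 CPM in LPC, from 293 to 606 counts a library. These levels lay far under those of Aldoa, at 1721 to 3505 CPM, and Pkm, at 2333 to 3584 CPM. The steps right after Gapdh also lay far under those, with Pgk1 at 116 to 234 CPM and Pgam1 at 42.6 to 54.6 CPM. The 3' ends of Gapdh transcripts are shared with many other annotated genes. Of the 863 distinct words of 50 bases in the last 300 bases of its protein-coding transcript models (GENCODE M21), 78.3% also occurred in transcripts of other genes, 172 of them, of which 168 are annotated pseudogenes. The same share was 86.9% for Eno1, 45.9% for Ak4 and between 12.7% and 22.8% for Gpi1, Aldoa, Tpi1, Pkm, Ldha, Ldhb, Bnip3 and Higd1a. It was 0% for the other 26 genes, Hk2, Eno2, Pgk1 and Pgam1 among them. How reads that fit several places were counted is not given in the sources used here, so the levels of Gapdh and Eno1 are uncertain, and whether this sharing bears on them was not tested.

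Pfkfb3 and Pfkfb4 encode enzymes that set the level of fructose 2,6-bisphosphate, the main activator of phosphofructokinase. Pfkfb3 was at 39.2, 52.5 and 48.5 CPM in HPC and 43.8, 44.4 and 45.8 CPM in LPC. The LPC libraries lay within the HPC range (log2 fold change 0.07, edgeR adjusted p = 0.93). Pfkfb4 was at 9.04, 8.07 and 10.2 CPM in HPC and 5.87, 7.66 and 7.83 CPM in LPC. It was, beside Hk2, the other member whose populations did not overlap, both with HPC higher. That makes 5.41% of the members, where 14.3% of all genes did not overlap and 7.16% did not overlap with HPC higher. It did not pass without the block (log2 fold change 0.35, edgeR adjusted p = 0.67) or with it (0.35, edgeR adjusted p = 0.31).

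Of the genes that direct pyruvate, Ldha, the lactate dehydrogenase of glycolytic cells, was at 1262, 1599 and 1219 CPM in HPC and 1186, 1726 and 1392 CPM in LPC (log2 fold change -0.08, SE 0.17, edgeR adjusted p = 0.94). In both populations replicate 2 was the highest library. Ldhb, the heart-type subunit, had a mean of 98.7 ± 13.8 CPM in the HPC libraries and of 90.3 ± 27.0 CPM in the LPC libraries (SD, n = 3 each). For Pdk1, a kinase that shuts off pyruvate dehydrogenase, the means were 142 ± 21.1 and 139 ± 48.1 CPM. Neither passed with or without the block.

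**Figure D2:**
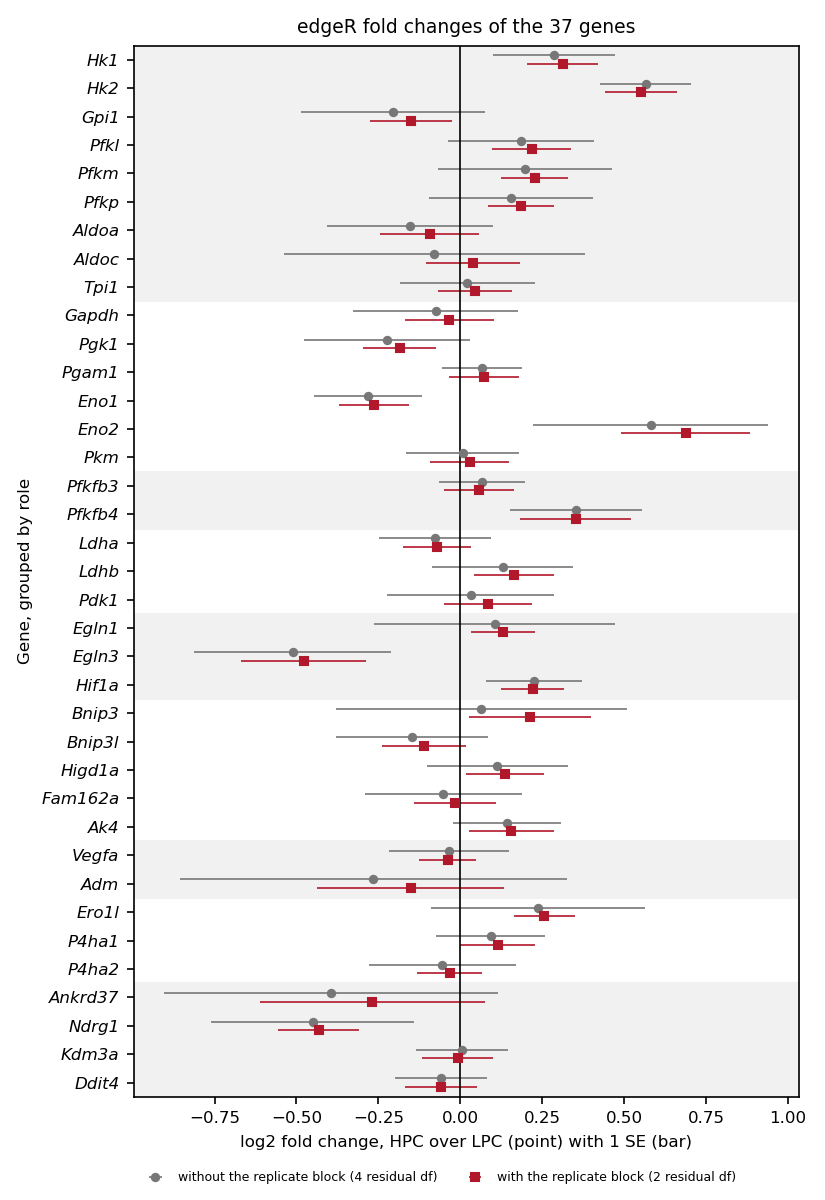
log2 fold change of HPC over LPC for each of the 37 genes (points) with 1 SE (bars), without the replicate block in grey and with it in red. Most bars span 0 in the unblocked fit, the blocked bars are shorter, and Hk2 at 0.55 is the gene that passed with the block.

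None of the 3 oxygen-sensing genes passed in either fit. Hif1a, the regulated HIF subunit, was at 262, 325 and 348 CPM in HPC and 246, 249 and 305 CPM in LPC. It was higher in HPC within each replicate number, and the groups overlapped (log2 fold change 0.22, SE 0.15, edgeR adjusted p = 0.71, and 0.27 with the block). Egln1, the main hydroxylase that marks HIF for destruction, was at 128, 189 and 287 CPM in HPC and 103, 192 and 267 CPM in LPC (log2 fold change 0.10, SE 0.37, edgeR adjusted p = 0.97). Libraries of equal number lay next to each other, so that the level followed the number. Egln3, a hydroxylase that HIF itself induces, was at 4.83, 5.50 and 6.81 CPM in HPC and 4.93, 8.93 and 10.6 CPM in LPC. Its log2 fold change was -0.51 (SE 0.30, edgeR adjusted p = 0.68), the lowest of the 37, and -0.48 with the block (edgeR adjusted p = 0.24).

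Among the HIF targets no gene passed in either fit. Of the mitochondrial targets, Bnip3 and Bnip3l, which mark mitochondria for removal by autophagy, had log2 fold changes of 0.06 and -0.15. Higd1a, a small protein of the respiratory chain, Fam162a, a mitochondrial membrane protein, and Ak4, a matrix adenylate kinase, had 0.11, -0.05 and 0.14. Fam162a, the most abundant of the 5, was at 111, 158 and 125 CPM in HPC and 88.2, 170 and 151 CPM in LPC, with LPC both lowest and highest (log2 fold change -0.05, SE 0.24, edgeR adjusted p = 0.97). Vegfa, the angiogenic growth factor, was at 145, 186 and 219 CPM in HPC and 157, 181 and 225 CPM in LPC (log2 fold change -0.03, SE 0.18, edgeR adjusted p = 0.98). Adm, the vasodilator adrenomedullin, had the lowest level of all 37, at 1.46, 3.47 and 3.66 CPM in HPC and 1.01, 3.27 and 6.09 CPM in LPC, from 15 to 91 counts a library. Its log2 fold change was -0.27 (SE 0.59), and -0.15 with the block (SE 0.28), and it did not pass in either fit. The replicate number took 90.9% of its sum of squares.

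Ero1l, an oxidase that forms disulphides in the endoplasmic reticulum, was at 309, 570 and 591 CPM in HPC and 243, 463 and 541 CPM in LPC. It was higher in HPC within each replicate number by 0.34, 0.30 and 0.13 on the log2 scale, but the groups overlapped. The log2 fold change was 0.24 (SE 0.33, edgeR adjusted p = 0.88), and 0.26 with the block (SE 0.093, edgeR adjusted p = 0.20). P4ha1 and P4ha2, the catalytic subunits of collagen prolyl hydroxylase, had log2 fold changes of 0.09 and -0.06. Ndrg1, a stress-responsive gene linked to differentiation, was at 156, 153 and 268 CPM in HPC and 169, 251 and 368 CPM in LPC. It was lower in HPC within each replicate number, by 0.12 for number 1, 0.72 for number 2 and 0.45 for number 3 on the log2 scale. Its log2 fold change was -0.45 without the block (SE 0.31, edgeR adjusted p = 0.73) and -0.43 with it (SE 0.12, edgeR adjusted p = 0.13). Ndrg1 (ENSMUSG00000005125) occupies bases 66929318 to 66969640 of chromosome 15, minus strand, and Gm17035 and Gm2895 overlap it on the other strand. Ddit4, an inhibitor of mTORC1, Ankrd37, an ankyrin repeat gene, and Kdm3a, a histone H3 lysine demethylase, had log2 fold changes of -0.06, -0.39 and 0.01.

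The members' levels followed the replicate number more closely than the population. In 26 of the 37 genes both libraries numbered 1 lay below all 4 others, a pattern seen in 11% of all tested genes. In none of the 37 did both lie above the others, as they did in 8.49% of all genes. The low level was present in either population by itself, counted after the data were seen. Replicate 1 was the lowest of the 3 HPC libraries in 28 of the 37 genes (31.8% of all genes) and the lowest of the 3 LPC libraries in 35 (38.6% of all genes). Each gene's sum of squares on the log2 CPM scale was split between population, replicate number and the rest. The replicate number took a median of 78.6% for the members, against 52.4% over all genes, and the population 4.48% against 16.5%. It took more than the population did in 35 of the 37, as it did in 72% of all genes. The replicate number has more levels than the population, so it takes the larger share more often even where neither has an effect. The members' shares are therefore to be read against those of all genes. With 1 library for each population and number, the split is a description.

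**Figure D3:**
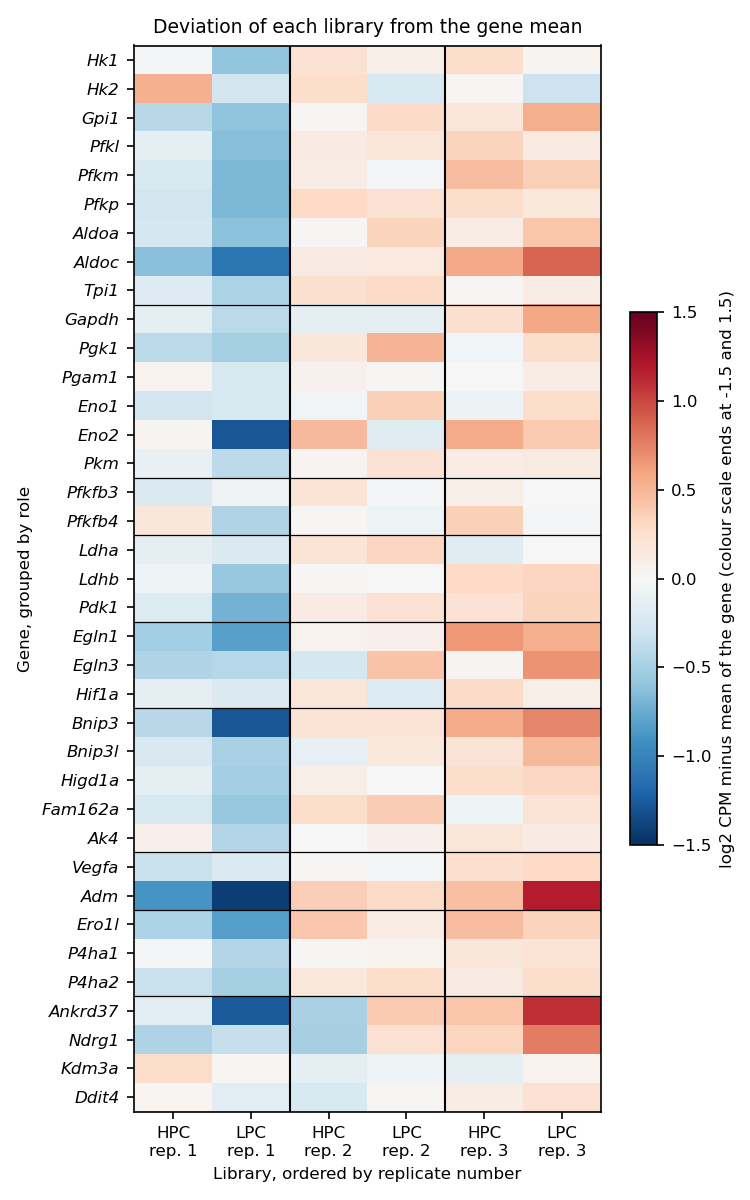
Deviation of each library from the gene's mean on the log2 CPM scale for the 37 genes (rows, grouped by role), with libraries ordered by replicate number and the 2 populations of a number side by side; blue is below and red above the mean. Both columns numbered 1 are mainly blue, LPC replicate 1 most deeply, and the columns numbered 3 mainly red.

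A test of the replicate number, with the population in the same model, was added after the data were seen. It called 8 members, or 21.6%, where 3.18% of all genes passed (edgeR, adjusted p under 0.05). Those 8 were Egln1, Ero1l, Aldoc, Pfkm, Ndrg1, Pfkp, Bnip3 and Pgk1, with edgeR adjusted p from 0.012 for Egln1 to 0.0495 for Pgk1. The count moved with the setting, and so did the share over all genes. Without the filter on low counts edgeR called 20 members (6.71% of all genes), and DESeq2's likelihood ratio test called 21 (7.98% of all genes). With length and GC content corrected edgeR called 8 (2.56% of all genes), and with a minimum mean of 5 CPM it called 6 (2.6% of all genes). In 7 of the 8 called by edgeR both libraries numbered 1 lay below all others. Bnip3 was at 63.1, 96.9 and 124 CPM in HPC and at 34.5, 97.4 and 140 CPM in LPC, a 4.05-fold range over the libraries. Aldoc was at 70.0, 118 and 161 CPM in HPC and at 50.7, 120 and 198 CPM in LPC, a 3.91-fold range. In both genes, number 1 was low and number 3 high in either population, and LPC spread more widely than HPC. That wider spread of LPC held in 32 of the 37 genes, against 63% of all genes.

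Other measures differed between the libraries too. Mitochondrially encoded genes took 3.21% of the counts in HPC replicate 1 and 2.07% to 2.56% in the other libraries, so that the other library numbered 1, with 2.46%, did not stand apart. The libraries numbered 1 held 18131623 counts for HPC and 14695822 for LPC, and the other 4 held from 14881833 to 22186743. A smooth fit on transcript length and GC content accounted for 2.57% and 2.94% of the variance of deviations from the gene means in the libraries numbered 1, and for more than that in each of the other 4. The part of depth and of mitochondrial counts in the members' levels was not tested. No label names a batch, day or culture behind the numbers.

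The promoters of Hk2, the member called between populations, and of Egln1, Ero1l and Bnip3, which differed by replicate number, show the DNA words through which HIF is known to bind. The RefSeq windows (GRCm38.p6) run from 250 bases before to 50 bases after the annotated start and are written in the direction of transcription. Capitals mark ACGTG or GCGTG on either strand, where the reverse reads CACGT or CACGC, and neighbouring words can overlap. The windows are chr6:82774405-82774704 for Hk2, chr8:124949205-124949504 for Egln1, chr14:45318523-45318822 for Ero1l and chr7:138909457-138909756 for Bnip3, all on the minus strand.
Hk2: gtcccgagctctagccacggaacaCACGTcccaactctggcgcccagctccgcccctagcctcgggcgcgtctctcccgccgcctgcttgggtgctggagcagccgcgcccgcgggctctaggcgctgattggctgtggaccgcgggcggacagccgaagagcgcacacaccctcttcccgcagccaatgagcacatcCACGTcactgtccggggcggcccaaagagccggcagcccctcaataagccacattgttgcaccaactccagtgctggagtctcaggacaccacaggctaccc
Egln1: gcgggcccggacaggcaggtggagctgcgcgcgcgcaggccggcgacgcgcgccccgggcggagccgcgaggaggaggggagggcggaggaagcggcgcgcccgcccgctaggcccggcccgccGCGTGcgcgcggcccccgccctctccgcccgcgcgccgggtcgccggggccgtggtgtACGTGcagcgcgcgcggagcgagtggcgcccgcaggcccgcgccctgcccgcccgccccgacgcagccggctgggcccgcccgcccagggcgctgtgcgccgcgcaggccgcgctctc
Ero1l: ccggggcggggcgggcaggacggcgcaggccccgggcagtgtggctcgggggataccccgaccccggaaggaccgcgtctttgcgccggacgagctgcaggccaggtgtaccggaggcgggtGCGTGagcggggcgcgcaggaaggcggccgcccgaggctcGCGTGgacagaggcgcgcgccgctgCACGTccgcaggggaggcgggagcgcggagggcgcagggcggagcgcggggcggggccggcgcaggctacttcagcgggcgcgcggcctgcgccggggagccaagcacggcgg
Bnip3: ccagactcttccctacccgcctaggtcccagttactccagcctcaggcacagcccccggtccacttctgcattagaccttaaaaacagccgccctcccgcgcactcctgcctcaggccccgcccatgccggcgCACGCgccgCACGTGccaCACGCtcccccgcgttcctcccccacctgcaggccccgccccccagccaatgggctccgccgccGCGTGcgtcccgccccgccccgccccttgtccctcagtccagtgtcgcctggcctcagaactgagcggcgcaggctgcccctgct
The Hk2 window held 2 words, both ACGTG on the reverse strand, at positions -226 and -52 from the start site. Egln1 held 2, Ero1l 3 and Bnip3 5, of which 2 overlap as the palindrome CACGTG. Of the 37 genes 35 had a window, 54 windows in all, since several have more than 1 start. A word was present in 79.6% of these windows, in 62.7% of the 11497 windows of tested genes and in 43.8% of all 32851 windows. Both words hold a CG pair, so windows rich in such pairs carry them more often, and a match is no evidence of binding. Eno2, Gpi1 and Tpi1, with 1 window each, had none.

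For many of the genes the sign of the difference between populations was not the same in the pair numbered 1 as in the others. In the pair numbered 1, 32 of the 37 genes were higher in HPC, against 50.2% of all genes, with a median log2 difference of 0.33. In the pair numbered 2 it was 15 genes (48.4% of all genes, members' median -0.03), and in the pair numbered 3 it was 12 (48.6%, members' median -0.11). In 16 of the 37 the difference was positive for number 1 and negative for numbers 2 and 3, where 16.5% of all genes did so. Among them were Aldoa, Gpi1, Pgk1, Tpi1, Pkm, Ldha and Pdk1 of glycolysis and Bnip3, Bnip3l and Fam162a of the HIF targets. With 1 library in each cell of this layout, the dependence on the number itself could not be tested.

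**Figure D4:**
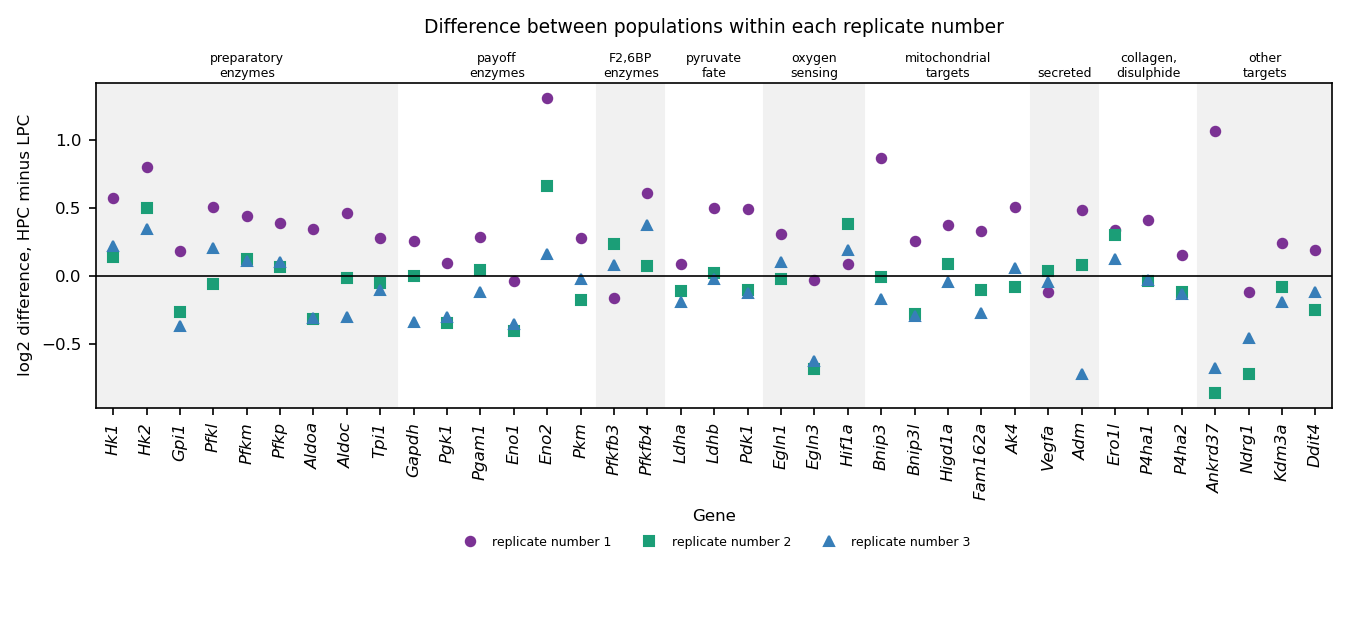
log2 difference in CPM, HPC minus LPC, within each replicate number for the 37 genes (circle, number 1; square, number 2; triangle, number 3). For number 1, 32 of the 37 points lie above 0, whereas for numbers 2 and 3 most lie at or under 0.

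LPC replicate 1 carries much of that contrast. It was the lowest of the 6 libraries in 29 of the 37 genes, against 21.2% of all genes. Without it 7 of the 37 unblocked log2 fold changes were above 0, against 21 with all libraries, and the median of the glycolytic genes turned to -0.12. Without LPC replicate 3, the highest library in 17 genes, 32 of the 37 were above 0. When the pair numbered 1 was left out of the blocked fit, edgeR called 11 members, where 24.5% of all genes passed. Hk2, Eno2 and Hif1a were then higher in HPC, and Gpi1, Aldoa, Pgk1, Eno1, Bnip3l, Ankrd37, Egln3 and Ndrg1 lower. That fit rests on 4 libraries and leaves 1 residual degree of freedom, and without the pair numbered 2 no member was called.

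In 8 genes HPC was higher within all 3 numbers, namely Hk1, Hk2, Pfkm, Pfkp, Pfkfb4, Eno2, Ero1l and Hif1a, or 21.6% against 19.6% of all genes. In 3, Eno1, Egln3 and Ndrg1, it was lower within all 3 numbers, or 8.11% against 21.3%. The first share lay close to that of the whole table and the second below it.

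The balance between isozymes, or between the targets Bnip3 and Bnip3l, which are not enzymes, is a ratio within a library and does not depend on scaling. In all, 11 shares over 9 sets were computed, and with 3 libraries against 3 the smallest two-sided exact permutation p is 0.1, so no share could pass. The Eno2 share of enolase counts was 4.10%, 4.77% and 5.09% in HPC and 1.64%, 2.33% and 3.62% in LPC. All HPC libraries lay above all LPC libraries (exact permutation p = 0.1, adjusted 0.55), and the caution on Eno1 counts applies to this share. The Egln3 share of Egln1 and Egln3 counts was 3.63%, 2.83% and 2.32% in HPC and 4.55%, 4.44% and 3.81% in LPC. Here all HPC libraries lay below (exact permutation p = 0.1, adjusted 0.55). The Hk2 share of hexokinase counts was 65.4%, 56.9% and 52.4% in HPC and 61.7%, 50.7% and 50.2% in LPC. It was higher in HPC within each number, with overlapping groups (exact permutation p = 0.5), and highest in the libraries numbered 1. For Bnip3l among Bnip3 and Bnip3l counts the share was 49.2%, 40.4% and 39.7% in HPC and 59.8%, 45.0% and 41.7% in LPC, lower in HPC within each number. The other 7 shares overlapped between populations.

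**Figure D5:**
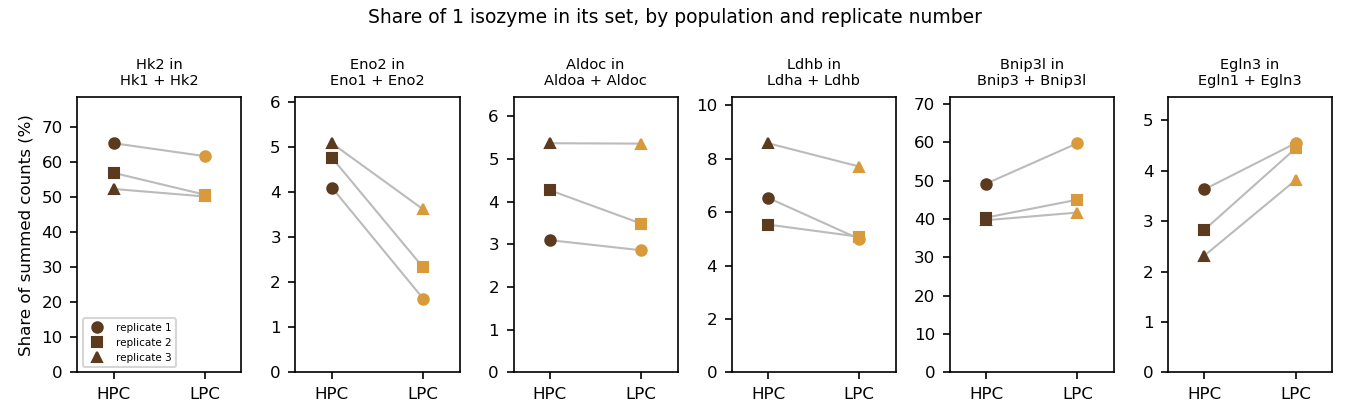
Share of 1 gene in the summed counts of its set, in percent, for 6 sets, each axis starting at 0. The sets are isozymes, except Bnip3 and Bnip3l, which are not enzymes. Grey lines join the HPC and LPC libraries of equal number. The Eno2 lines all run down from HPC to LPC and the Egln3 lines all run up, and in these 2 sets the populations do not overlap.

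Further genes of the same pathways were read from the same fits. Of 48 other genes of glucose metabolism 36 were tested, and of 68 other genes of oxygen sensing and HIF response 54. Without the block none was called, where 0.0419% of all genes were. With it 1 of the 36 genes of glucose metabolism and 2 of the 54 of the HIF response were called, all higher in HPC. With the block 2.52% of all genes were called, 1.43% higher in HPC. Counts this small do not set the lists apart from the whole table. Ldhd, a mitochondrial dehydrogenase that oxidises D-lactate, was at 15.8, 11.4 and 14.9 CPM in HPC and 3.24, 3.43 and 6.29 CPM in LPC. All HPC libraries lay above all LPC libraries, as in 7.16% of all genes. The blocked log2 fold change was 1.72, or 3.31-fold (SE 0.21, edgeR adjusted p = 0.013, against 0.13 without the block). Insig2, which holds back sterol synthesis, was at 185, 170 and 187 CPM in HPC and 107, 117 and 137 CPM in LPC (blocked log2 fold change 0.59, or 1.50-fold, edgeR adjusted p = 0.032, against 0.18 without the block). Hmox1, haem oxygenase, was at 195, 250 and 202 CPM in HPC and 139, 169 and 154 CPM in LPC (blocked log2 fold change 0.48, or 1.40-fold, edgeR adjusted p = 0.042, against 0.29 without the block). Both genes also answer to signals other than oxygen. Without the pair numbered 2 none of these 3 genes passed the blocked test, and without the pair numbered 3 only Ldhd did (edgeR adjusted p = 0.0021).

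Among wider-list genes with a mean of at least 5 CPM, the 2 most negative fold changes of each list did not pass. Arnt2, a partner subunit of HIF, was at 10.3, 8.70 and 14.7 CPM in HPC and 20.8, 15.1 and 17.4 CPM in LPC (log2 fold change -0.66, edgeR adjusted p = 0.44, and 0.093 with the block). Loxl2, a matrix cross-linking oxidase, was at 6.57, 17.8 and 19.1 CPM in HPC and 8.23, 28.1 and 28.1 CPM in LPC (log2 fold change -0.57, edgeR adjusted p = 0.80, and 0.084 with the block). In either population its libraries numbered 1 were the low ones. Pck2, the mitochondrial PEP carboxykinase, and Taldo1, transaldolase, had log2 fold changes of -0.27 and -0.25. The replicate number was called for 12 of the 54 wider HIF genes, or 22.2%, and for 3 of the 36 wider glucose genes, or 8.33%, against the 3.18% of all genes. Gbe1, the glycogen branching enzyme, was among the 12 and is named after its values were seen. It was at 76.2, 123 and 175 CPM in HPC and 52.8, 86.9 and 154 CPM in LPC, with number 1 lowest and number 3 highest in either population.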

How the data were processed

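Total RNA of sorted B16-F3 cells was made into QuantSeq 3' mRNA-Seq FWD libraries and read on a NextSeq 500, per the labels' protocols. Per the submitters' processing notes STAR and the GRCm38 build were used. For the counting program and its handling of strand, molecular identifiers and multiply mapping reads, the sources used here give nothing. Raw counts per gene, 1 column per library, are what the authors deposited, and each of the 6 column names matched 1 sample title.

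Genes were filtered with filterByExpr, scaled with TMM and tested with the quasi-likelihood test of edgeR 4.0.16 (R 4.3.3), group as the only term (4 residual degrees of freedom), p-values adjusted over all 11921 genes. The log2 CPM values used for pair differences and for sums of squares carry a prior count of 2. SEs come from the F statistic. A second fit, blocked on the replicate number (2 residual degrees of freedom), is given because deviations of equally numbered libraries from their group means correlated by 0.42, 0.35 and 0.65 across genes for the numbers 1, 2 and 3, all above the minimum of 0.1; the pairing comes from these data and not from the labels. Alternatives were other scalings and filters, DESeq2 1.42.0, limma-voom (limma 3.58.1), a length and GC correction, and leaving out libraries. Isozyme shares were compared with exact permutation tests. The fits were also run on simulated counts that held no effect of the replicate number and changes larger than that of Hk2. That run therefore does not show how either fit behaves under such an effect or for smaller changes. The 37 genes, the wider lists and the tests were chosen with earlier results of these data known. Named in full were members with an unadjusted p under 0.05 in either fit and the most abundant of each role; from the wider lists, called genes and otherwise the 2 largest changes in a direction with a mean of at least 5 CPM.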

Additional observations from a re-analysis of the deposited data

How the results depend on the processing

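The count of genes called among all tested, 5 without the block, was 28 without the filter on low counts, 224 with DESeq2, 301 with the replicate block, 493 with the block in DESeq2 and 322 with the block and the length and GC correction. It ranged from 0 to 2947 when 1 library, or 1 pair with the block, was left out. Of the 37 genes 1 was called higher in HPC by DESeq2, 1 with the block and 2 with the block in DESeq2, and none lower. Leaving out a library or a pair gave 0 to 3 called higher and 0 to 8 called lower, and the counts above 0 came from fits with the block. The replicate number was called for 20 of the 37 genes and 1029 genes in all without the filter, for 21 and 933 in DESeq2's likelihood ratio test, and for 6 and 266 with a minimum mean of 5 CPM, against 8 and 379.

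The median log2 fold change went from -0.12 when LPC replicate 1 was left out to 0.24 when LPC replicate 3 was, over the glycolytic genes, and from -0.19 to 0.17 over the HIF genes, for which it was 0.040 with the block and the length and GC correction. The same libraries set most ranges of single genes. Genes whose log2 fold change took both signs when 1 library or pair was left out had these ranges: Gpi1 -0.47 to 0.041, Pfkl -0.033 to 0.36, Pfkm -0.034 to 0.45, Pfkp -0.078 to 0.33, Pfkfb3 -0.037 to 0.18, Aldoa -0.41 to 0.024, Aldoc -0.45 to 0.45, Tpi1 -0.17 to 0.20, Gapdh -0.26 to 0.26, Pgk1 -0.46 to 0.010, Pgam1 -0.028 to 0.17, Pkm -0.16 to 0.14, Ldha -0.21 to 0.090 and Ldhb -0.077 to 0.35. The others were Pdk1 -0.23 to 0.22, Bnip3 -0.32 to 0.52, Bnip3l -0.37 to 0.083, Ero1l -0.033 to 0.49, Ankrd37 -0.81 to 0.17, Egln1 -0.24 to 0.45, Vegfa -0.18 to 0.12, Adm -0.69 to 0.40, P4ha1 -0.071 to 0.23, P4ha2 -0.27 to 0.10, Kdm3a -0.14 to 0.082, Ddit4 -0.17 to 0.043, Higd1a -0.076 to 0.32, Fam162a -0.28 to 0.15 and Ak4 -0.014 to 0.28. The remaining 8 genes, Hk1, Hk2, Pfkfb4, Eno1, Eno2, Egln3, Ndrg1 and Hif1a, kept their sign in those fits. Near 0, other settings also turned a sign. With upper quartile scaling the log2 fold change was -0.013 for Tpi1, -0.027 for Pkm, -0.0040 for Pdk1 and -0.025 for Kdm3a, and with library size only it was -0.011 for Pkm and -0.015 for Kdm3a. With a minimum mean of 5 CPM it was -0.0060 for Pkm and -0.0083 for Kdm3a, and with limma-voom 0.049 for Aldoc and -0.0075 for Kdm3a. With the replicate block it was 0.040 for Aldoc and -0.0081 for Kdm3a, and in DESeq2 with the block 0.047 and -0.0040. The length and GC correction with the block gave 0.00066 for Aldoa, 0.059 for Aldoc, -0.071 for Kdm3a, 0.040 for Ddit4 and 0.051 for Fam162a. Among isozyme shares the difference in percentage points took both signs for Pfkl (-0.71 to 1.52), Pfkm (-0.75 to 1.16), Pfkp (-2.16 to 0.33) and Aldoc (-0.22 to 1.07). The cause of these changes was not tested. With 3 libraries a population, the size of difference that could be called is limited by SEs with a median of 0.22 over the 37 genes without the block and 0.12 with it. In edgeR with all libraries, the replicate block turned the calls of Hk2, Ldhd, Insig2, Hmox1, Tyr and Pdgfra and of no other gene named here; in DESeq2 it turned, among the 37, that of Eno2.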

Other observations

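Among the other routes that glucose carbon can take, the pentose phosphate pathway and the entry of pyruvate into mitochondria were measured in the same fits. No gene of either was called with or without the block, where 2.52% of all genes were called with it. In the pentose phosphate pathway, which makes NADPH and ribose, the enzymes did not lean one way. Rpia and Rpe, which interconvert pentose phosphates, were higher in all HPC than in all LPC libraries, with log2 fold changes of 0.17 and 0.20 (edgeR adjusted p = 0.70 and 0.63). Populations did not overlap in 14.3% of all genes, 7.16% with HPC higher. Among the 36 tested genes of the wider glucose list, 3 did not overlap with HPC higher and 2 with HPC lower. Taldo1, transaldolase, was lower in all HPC libraries, at 107, 117 and 110 CPM against 121, 149 and 129 CPM in LPC (log2 fold change -0.25, edgeR adjusted p = 0.55, and 0.20 with the block). Tkt, transketolase, was lower in HPC within each replicate number, at 286, 373 and 319 CPM against 338, 447 and 371 CPM (log2 fold change -0.24, edgeR adjusted p = 0.69, and 0.20 with the block). G6pdx, which commits glucose 6-phosphate to the pathway, was at 150, 173 and 159 CPM in HPC and 146, 167 and 179 CPM in LPC, with overlapping populations.

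Pdha1, the alpha subunit of pyruvate dehydrogenase, was at 124, 122 and 119 CPM in HPC and 138, 151 and 141 CPM in LPC. No library of one population reached the other, as in 14.3% of all genes. The difference did not pass (log2 fold change -0.23, edgeR adjusted p = 0.52, and 0.22 with the block). The other subunits Pdhb, Dlat, Dld and Pdhx had log2 fold changes between -0.09 and 0.20, and their populations overlapped. The replicate number was called for none of these pentose phosphate and pyruvate dehydrogenase genes (edgeR, adjusted p under 0.05). It was called for 3.18% of all genes, and at that share a list this short can hold none. Of the 37 glycolytic and hypoxia genes it was called for 8, and the difference between the lists was not tested. In the wider glucose list 3 genes passed the test of the replicate number, and they are named after their values were seen. They were Eno3, Gpd1 and Me1 (edgeR adjusted p = 0.012, 0.013 and 0.019). The levels of Me1, the cytosolic malic enzyme, which also makes NADPH, were 44.4, 65.5 and 81.1 CPM in HPC. In LPC they were 29.6, 53.9 and 70.0 CPM.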
